A study of Mus musculus with 34 samples.

Results

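The *Dlx* genes are the mouse relatives of the fly gene *Distal-less*, and all 6 of them (*Dlx1*, *Dlx2*, *Dlx3*, *Dlx4*, *Dlx5* and *Dlx6*) were taken by name from the 22040 protein-coding genes of an RNA-seq table of E11.5 limb buds. The table held 3 WT and 3 CKO libraries. In the CKO embryos, *Prrx1-Cre*;*Hnrnpk* fl/fl, the *Prrx1* promoter drives Cre in limb bud mesenchyme and in the calvarium, and Cre removes a stretch of *Hnrnpk*, which encodes an RNA- and DNA-binding protein. The labels call the other group *Hnrnpk* WT, and whether it carried floxed alleles or Cre was not given in the sources used here. Neither was the number of embryos per library, nor whether forelimb and hindlimb buds were mixed. Embryos of both sexes were used. The other 28 samples of the series (chromatin accessibility, factor binding, histone marks and chromosome contacts) were not analysed here.

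DLX proteins are homeodomain transcription factors that bind AT-rich DNA. The genes lie as 3 pairs, each pair pointing tail to tail with shared enhancers between its members, so partners are often transcribed in the same cells. In the limb bud they are active in the apical ectodermal ridge, the strip of ectoderm whose FGF signals keep the bud growing, and *Dlx5* and *Dlx6* are also active in mesenchyme, where they promote cartilage and bone formation. Loss of *Dlx5* and *Dlx6* together gives split hand and foot malformation. Outside the limb, *Dlx1* and *Dlx2* are best known in the forebrain and the pharyngeal arches.

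The expression unit was FPKM as the authors deposited it, the fragments on a gene normalised for exon length and a library size. Genes were tested where their FPKM averaged 0.5 or more over the libraries, which left 12305. CKO was set against WT by limma on log2(FPKM + 0.1), with *p* values adjusted over all of them (Benjamini-Hochberg). For genes as low as the *Dlx* genes, the added 0.1 makes fold changes smaller than they are. Single values were also compared by exact two-sided permutation, whose smallest possible *p* value with 3 libraries per group is 0.1. The labels do not say whether the libraries came from separate embryos, so the *p* values measure the spread between these libraries. The libraries held between 17140881 and 24624442 reads on the listed genes, as worked back from the FPKM and the exon lengths. The library size behind the FPKM, worked back in the same way, was 19146571 for CKO replicate 2 and 23848046 for CKO replicate 3. Both sizes were below the reads on the listed genes, 21190301 and 24624442, while in the other libraries the size was above them. The size was therefore not plain sequencing depth. The FPKM of *Hnrnpk* averaged 191 ± 5.0 over the WT libraries and 135 ± 7.48 over the CKO libraries (SD, n = 3), and was lower in every CKO library (log2 fold change -0.50, SE 0.13, limma adjusted *p* = 0.334). The first principal component held 52.6% of the variance and set replicate 1 of both groups apart from replicates 2 and 3, while the second held 26.0% and set WT apart from CKO. Replicates 2 and 3 alone were therefore also compared. There the log2 fold change of *Hnrnpk* was -0.45 (limma adjusted *p* = 0.0377). Calls that the *Dlx* genes, their neighbours and the pathway lists gain there are given beside the result. For the marker lists and the *Trp53* targets such calls are not all given.

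No *Dlx* gene passed an adjusted *p* value of 0.05 between CKO and WT limb buds. Of all genes tested, 8 (0.0650%) passed it. *Dlx2* differed most among the *Dlx* genes and *Dlx1* less, and these were the 2 members whose CKO libraries all lay above the WT libraries, as in 693 (5.63%) of all genes tested. *Dlx3* and *Dlx6* overlapped between the groups, and *Dlx5* changed direction with the replicate number. *Dlx4* stayed below the filter on low values and entered no model, so 5 of the 6 genes were tested. In bulk tissue, fewer cells of a type and less RNA per cell cannot be told apart.

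The *Dlx* genes were first ordered by level, since FPKM are per length and can be set side by side. In WT limb buds *Dlx5* had the highest FPKM, 3.76 ± 1.28 (SD, n = 3), followed by *Dlx2* with 2.1 ± 0.11 and *Dlx3* with 1.02 ± 0.075. *Dlx1* with 0.703 ± 0.053 and *Dlx6* with 0.623 ± 0.139 came next and were not separated by the spread between libraries. *Dlx4* was lowest, with 0.114 ± 0.013. Each of the other neighbours in this order was apart in all 3 WT libraries. In CKO limb buds the order of the means was the same, but the ranges of *Dlx5*, 3.32 ± 0.26 (SD, n = 3), and *Dlx2*, 3.11 ± 0.61, overlapped, and *Dlx2* was above *Dlx5* in replicate 1. The genes were transcribed at low levels, since the mean FPKM of *Dlx5* exceeded that of 31.2% of the genes tested, that of *Dlx2* 24.1% and that of *Dlx6* 3.50%.

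**Figure D1:**
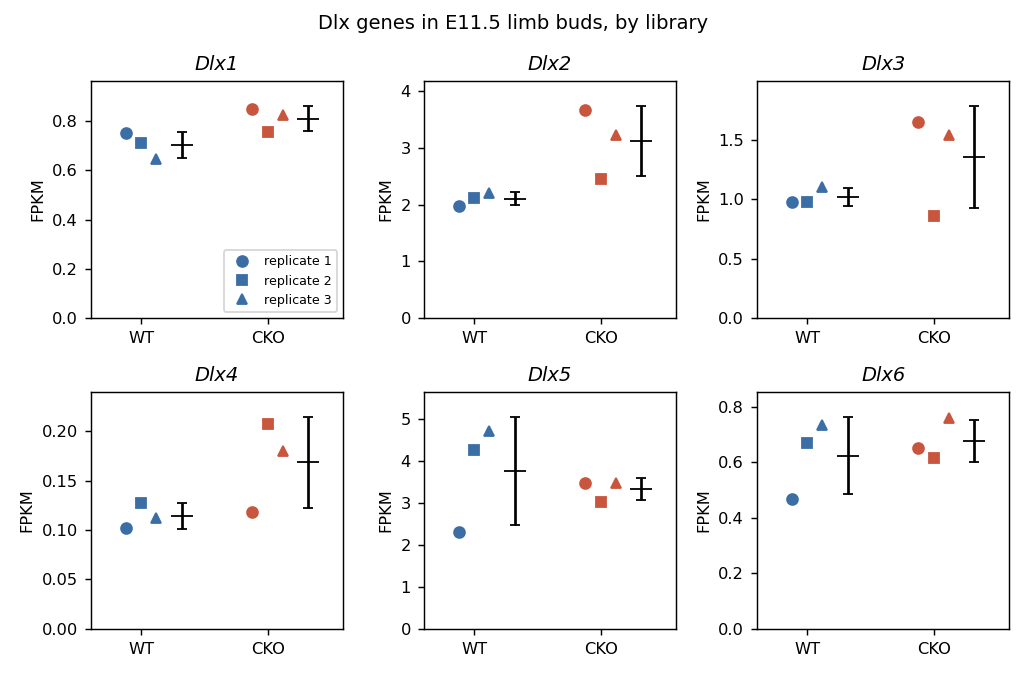
FPKM (vertical axis, from 0, with its own scale in each panel) of the 6 *Dlx* genes in WT (blue) and CKO (red) limb buds, 1 symbol per library and 1 symbol shape per replicate number, with the mean and SD of 3 libraries in black. All 3 CKO libraries lie above the WT libraries for *Dlx1* and *Dlx2*, and WT replicate 1 lies far below the other WT libraries for *Dlx5*.

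*Dlx1* and *Dlx2* lie on chromosome 2 of GRCm38 (chr2:71528113-71546754) on opposite strands, with 9426 bases between them. *Dlx2* (ENSMUSG00000023391) had an FPKM of 1.98, 2.12 and 2.20 in WT replicates 1, 2 and 3 and of 3.66, 2.45 and 3.23 in CKO replicates 1, 2 and 3. Every CKO library was above every WT library, with CKO replicate 2 closest to the WT range. The mean was 1.48 times as high in CKO, with a log2 fold change of 0.53 (SE 0.17, 95% interval 0.13 to 0.93, limma adjusted *p* = 0.473). The unadjusted *p* value was 0.0167, which placed *Dlx2* 432nd of the 12305 genes, and 350 genes (2.84%) had an unadjusted *p* value under 0.05 and were higher in CKO. Complete separation with higher CKO values was found in 5.63% of the genes tested, and the exact permutation *p* value was 0.1.

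Since its groups did not overlap, the direction of the *Dlx2* difference was fixed within each replicate number and with any library dropped. The difference was 0.85, 0.20 and 0.53 on the log2 scale for numbers 1, 2 and 3. CKO was higher in all 3 numbers in 18.2% of the genes tested. With any 1 library dropped the *Dlx2* difference lay between 0.41 and 0.69. It was 0.37 (limma adjusted *p* = 0.125) in replicates 2 and 3 alone. A model with the replicate number as a block gave a limma adjusted *p* value of 0.0914. The reads behind these values numbered 102, 145 and 137 in WT and 189, 134 and 220 in CKO. The exact Poisson 95% interval of CKO replicate 2, 2.05 to 2.90 FPKM, overlapped those of all WT libraries, while those of CKO replicates 1 and 3, 3.15 to 4.22 and 2.82 to 3.69, lay above them. These intervals cover counting error only.

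The 250 bases upstream of the *Dlx2* start (chr2:71546755-71547004 of GRCm38.p6, minus strand, from RefSeq) are shown because *Dlx2* was the member with the largest difference. Capitals mark 2 copies of CACGTG, an E-box that reads the same on both strands, which begin 142 and 42 bases before the start, and 1 CCAAT motif in reverse complement, which begins 74 bases before it.

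Dlx2 upstream: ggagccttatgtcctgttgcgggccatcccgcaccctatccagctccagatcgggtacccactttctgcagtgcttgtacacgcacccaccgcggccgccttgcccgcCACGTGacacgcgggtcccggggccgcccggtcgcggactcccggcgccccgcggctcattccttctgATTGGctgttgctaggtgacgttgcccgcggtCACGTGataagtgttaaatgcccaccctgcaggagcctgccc

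Of 32851 RefSeq promoters of the same length, 6.02% held CACGTG and 33.8% held CCAAT on either strand. The sequence held 2 stretches of CCCC (either strand), the kind of C-rich element that hnRNPK proteins bind, which 83.1% of the promoters also held. It held no TAATT, the core that homeodomains bind, which 25% of the promoters held. Its GC content was 66.4%, against a median of 52.4%. A match of letters is not a binding site.

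*Dlx1* (ENSMUSG00000041911), the partner of *Dlx2*, had an FPKM of 0.750, 0.712 and 0.646 in WT and of 0.850, 0.755 and 0.824 in CKO replicates 1, 2 and 3. The groups did not overlap, but the lowest CKO library lay just above the highest WT library. The log2 fold change was 0.18 (SE 0.18, 95% interval -0.25 to 0.61, limma adjusted *p* = 0.856; exact permutation *p* = 0.1), and 0.16, 0.074 and 0.31 within numbers 1, 2 and 3. Each value rested on between 73 and 106 reads. The exons of *Dlx1* share 335 bases with the antisense gene *Dlx1as*. The libraries were stranded, but the sources used here do not say whether the counting used the strand, so reads of the antisense gene could be included.

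Within the pair, the ratio of *Dlx2* to *Dlx1* was 3.01 ± 0.38 (SD, n = 3) in WT and 3.82 ± 0.54 in CKO libraries, with overlapping groups (exact permutation *p* = 0.2).

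*Dlx5* and *Dlx6* lie on chromosome 6 (chr6:6863334-6882085), 9236 bases apart. *Dlx5* (ENSMUSG00000029755) had an FPKM of 2.30, 4.26 and 4.72 in WT replicates 1, 2 and 3 and of 3.47, 3.02 and 3.48 in CKO replicates. The 3 CKO libraries lay close together, between WT replicate 1, which was lowest of all, and WT replicates 2 and 3, which were highest. Over all libraries the log2 fold change was -0.11 (SE 0.26, 95% interval -0.71 to 0.48, limma adjusted *p* = 0.937; exact permutation *p* = 0.8).

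Within replicate numbers, *Dlx5* was higher in CKO by 0.57 on the log2 scale for number 1 and lower for numbers 2 and 3, at -0.48 and -0.43. This order of signs was found in 13.6% of the genes tested. In replicates 2 and 3 alone, *Dlx5* was lower in CKO, with a log2 fold change of -0.46 (SE 0.14, limma adjusted *p* = 0.0283), as were 984 genes (8.00%) in that comparison of 2 libraries against 2, where 1851 (15.0%) passed in either direction. The low value of WT replicate 1 was beyond counting error, with 94 reads and a Poisson 95% interval of 1.86 to 2.82 FPKM, against 3.73 to 4.85 for WT replicate 2. In that library the summed FPKM of 7 skeletal muscle markers was also low, 12.4 against 45.8 and 42.7 in WT replicates 2 and 3. The summed FPKM of 10 neural crest, glia and neuron markers was 7.46 against 14.1 and 13.3, and that of 28 ectoderm and ridge markers was 103 against 127 and 147. Not all markers were low in WT replicate 1. The summed FPKM of the endothelial markers was 36.7 there, against 26.3 and 28.8 in WT replicates 2 and 3. The mean log2 level of the mesenchyme markers was 4.86 against 4.85 and 4.89, and their summed FPKM was 521 against 597 and 611. The part of these tissues in the *Dlx5* values was not tested.

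*Dlx6* (ENSMUSG00000029754) had an FPKM of 0.467, 0.668 and 0.734 in WT and of 0.651, 0.616 and 0.759 in CKO replicates 1, 2 and 3. As for *Dlx5*, WT replicate 1 was lowest, and the groups overlapped. The log2 fold change was 0.12 (SE 0.23, 95% interval -0.42 to 0.65, limma adjusted *p* = 0.926; exact permutation *p* = 0.7). Within the numbers it was 0.41, -0.10 and 0.044, and it became -0.050 without WT replicate 1. Each value rested on between 20 and 43 reads, and the exons share 104 bases with *Dlx6os2* on the opposite strand. The ratio of *Dlx5* to *Dlx6* was 5.92 ± 0.85 (SD, n = 3) in WT and 4.94 ± 0.37 in CKO (exact permutation *p* = 0.2).

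*Dlx3* and *Dlx4* lie on chromosome 11 (chr11:95120119-95146263), 15150 bases apart. *Dlx3* (ENSMUSG00000001510), a gene of ectoderm and later of skin, hair and teeth, had an FPKM of 0.979, 0.978 and 1.11 in WT and of 1.65, 0.861 and 1.54 in CKO replicates 1, 2 and 3. CKO replicates 1 and 3 were above all WT libraries and CKO replicate 2 was below them. The log2 fold change was 0.33 (SE 0.25, 95% interval -0.26 to 0.92, limma adjusted *p* = 0.810; exact permutation *p* = 0.4), and it lay between 0.17 and 0.60 when any 1 library was dropped. The same order of CKO libraries, replicate 1 highest and replicate 2 lowest, was seen for *Dlx1* and *Dlx2*.

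*Dlx4* (ENSMUSG00000020871) was near the limit of detection. Its FPKM was 0.102, 0.128 and 0.112 in WT and 0.118, 0.208 and 0.180 in CKO replicates 1, 2 and 3, from 6, 10 and 8 reads and 7, 13 and 14 reads. CKO replicate 1 fell within the WT range and the other CKO libraries above it (exact permutation *p* = 0.2). Within the replicate numbers it was higher in CKO by 0.11, 0.43 and 0.40 on the log2 scale. The counting error of each value was wide, with Poisson 95% intervals of 0.061 to 0.24 FPKM for WT replicate 2 and 0.11 to 0.36 for CKO replicate 2. The exons of *Dlx4* share 79 bases with the antisense gene *Dlx4os*, so reads of that gene could be included.

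**Figure D2:**
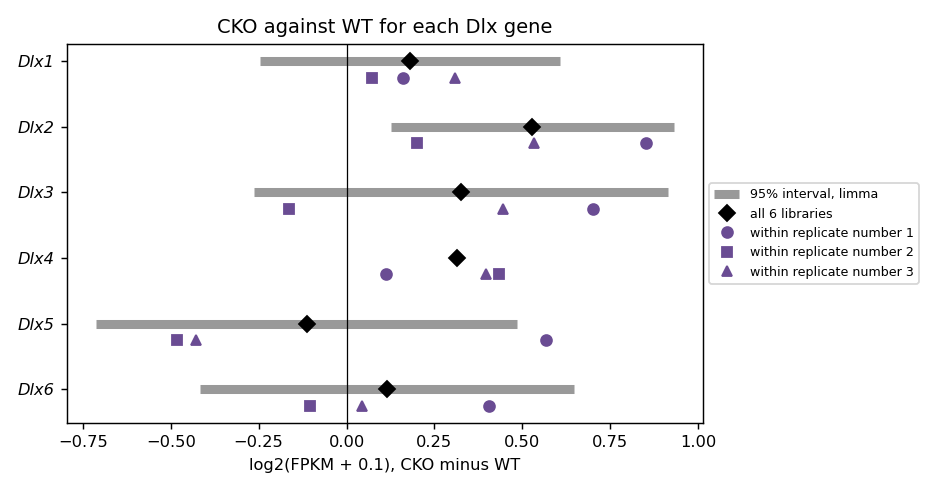
Difference between CKO and WT on the log2(FPKM + 0.1) scale (horizontal axis) for each *Dlx* gene, with all 6 libraries (black diamonds), the limma 95% interval (grey bars, absent for *Dlx4*, which was not tested) and the difference within each replicate number (purple symbols). The interval of *Dlx2* lies above 0, and the purple symbols of *Dlx5* lie on both sides of 0.

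The sum over the family overlapped between the groups, while *Dlx2* took a larger share of it in every CKO library. The summed FPKM of the 6 genes was 8.33 ± 1.54 (SD, n = 3) in WT and 9.44 ± 1.34 in CKO (exact permutation *p* = 0.5). Of the sum, *Dlx2* took 30.1%, 23.9% and 23.1% in the WT libraries, in the order of their numbers, and 35.2%, 31.0% and 32.2% in the CKO libraries, with no overlap (exact permutation *p* = 0.1). *Dlx5* took 35.0%, 48.1% and 49.6% in WT and 33.3%, 38.2% and 34.8% in CKO (exact permutation *p* = 0.2). In WT replicate 1 the share of *Dlx5* lay within the CKO range. The shares of *Dlx1*, *Dlx3*, *Dlx4* and *Dlx6* overlapped between the groups. The ratio of *Dlx5* to *Dlx2* was 1.16, 2.01 and 2.15 in WT and 0.948, 1.23 and 1.08 in CKO (exact permutation *p* = 0.2). Shares and ratios rest on the same values as the single genes and are not separate evidence.

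**Figure D3:**
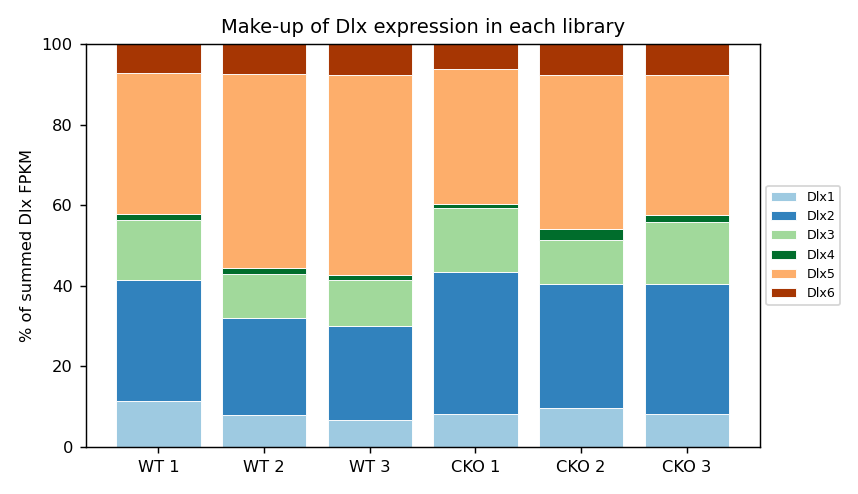
Share of the summed *Dlx* FPKM (vertical axis, percent) taken by each *Dlx* gene in each of the 6 libraries, 1 bar per library. The dark blue part, *Dlx2*, is between 23.1% and 30.1% in WT and between 31.0% and 35.2% in CKO, and the light orange part, *Dlx5*, is largest in WT replicates 2 and 3.

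Cre is driven in mesenchyme, and the ridge, where *Dlx* genes are active, is ectoderm, so the members were also set against markers of both tissues. Both tissues were present in every library. All 14 mesenchyme markers passed the filter, among them *Hoxd13* (97.5 ± 37.2 FPKM in WT and 106 ± 13.9 in CKO) and *Twist1* (103 ± 11.1 and 91.8 ± 9.31; SD, n = 3). Of the 28 ectoderm and ridge markers 26 passed, with *Cdh3* (24.3 ± 2.39 and 26.6 ± 2.91) and *Krt5* (15.8 ± 8.21 and 19.0 ± 5.93) highest. Of those 26 ectoderm markers, 22 had a log2 fold change above 0, as had 6264 of all 12305 genes tested. Their median was 0.16, against 0.0048 over all genes, and none passed the adjusted threshold. In replicates 2 and 3 alone 2 of them passed as higher in CKO, as did 867 of all genes tested. All CKO libraries lay above the WT libraries for 3 of the 26 ectoderm markers, as in 5.63% of the genes tested. The summed FPKM of the ectoderm markers ranged from 103 to 147 in WT and from 119 to 155 in CKO. The mesenchyme markers had a median of -0.12, with a summed FPKM of 521 to 611 in WT and 522 to 582 in CKO. Of the 14, 9 had a log2 fold change below 0, as had 6041 of all genes tested. All CKO libraries lay below the WT libraries for 2 of them, as in 8.86% of the genes tested. As lower in CKO, 1 passed with the replicate block, as did 207 of all genes tested. In replicates 2 and 3 alone 1 passed as lower, as did 984 (8.00%) of all genes tested.

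Set against the mean log2 level of the mesenchyme markers in the same library, *Dlx2* was higher in CKO by 0.63 on the log2 scale, with no overlap between the groups (exact permutation *p* = 0.1), and *Dlx1* by 0.28, also without overlap (exact permutation *p* = 0.1). With the summed FPKM of the markers in place of the mean, *Dlx2* stayed apart at 0.58 (exact permutation *p* = 0.1), while *Dlx1* overlapped at 0.23 (exact permutation *p* = 0.2). Set against the ectoderm markers, the difference of *Dlx2* was 0.34 and the groups overlapped (exact permutation *p* = 0.3). It was 0.12 without CKO replicate 1 and 0.52 without CKO replicate 2. That of *Dlx1* was -0.0081 (exact permutation *p* = 0.9), between -0.17 without WT replicate 3 and 0.13 without WT replicate 1. For *Dlx5* it was -0.013 against mesenchyme (exact permutation *p* = 1.0) and -0.30 against ectoderm (exact permutation *p* = 0.3). Without WT replicate 1 these became -0.32 and -0.52, and against mesenchyme the difference turned to 0.12 without WT replicate 2, 0.17 without WT replicate 3 and 0.024 without CKO replicate 1. The mesenchyme markers included *Fgf10* and *Hoxd13*, and the ectoderm markers *Fgf8*, which the paper reports as lower in CKO limb buds by qPCR. The differences are therefore not against tissue content alone. How far the ectoderm content of the libraries enters the *Dlx* values was not tested.

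Other tissues in the dissected buds also varied between libraries. Erythroid genes, led by *Hbb-y* and *Hbb-bh1*, took between 11.8% (CKO replicate 1) and 32.6% (CKO replicate 2) of the summed FPKM. The summed FPKM of the muscle markers, led by *Actc1* and *Myog*, ranged from 12.4 to 45.8 in WT and from 30.3 to 64.8 in CKO. Endothelial markers, led by *Cdh5* and *Pecam1*, ranged from 26.3 to 36.7 in WT and from 18.0 to 28.8 in CKO, and macrophage markers, led by *C1qb* and *Csf1r*, from 17.1 to 26.6 and from 19.1 to 32.9. All 9 erythroid, all 6 tested muscle and 6 of 7 tested macrophage markers had log2 fold changes above 0 (medians 0.43, 0.56 and 0.23). All 8 endothelial markers were below 0 (median -0.31, and 0.025 in replicates 2 and 3 alone). None of these markers passed the adjusted threshold. Of the CKO libraries, replicate 2 had the highest erythroid, muscle and macrophage levels and the lowest FPKM of every *Dlx* gene except *Dlx4*, and the part of one in the other was not tested. The summed FPKM of neural crest, glia and neuron markers, led by *Tubb3* and *Erbb3*, overlapped between the groups. So did that of the 11 proliferation genes, led by *Pcna* and *Top2a*. Of those 11, 10 had a log2 fold change above 0, as had 6264 of all 12305 genes tested. All CKO libraries lay above the WT libraries for 2 of the 11 and for 1 of the 5 tested neural crest, glia and neuron markers, as in 5.63% of the genes tested. Of 11 *Trp53* target genes 6 rose past the adjusted threshold (*Cdkn1a*, *Eda2r*, *Ccng1*, *Phlda3*, *Zmat3* and *Sesn2*). The highest of the 11 by FPKM, *Ccng1* and *Bax*, had log2 fold changes of 2.36 and 0.73.

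The human counterparts of *Dlx5* and *Dlx6* lie in a split hand and foot locus, so other genes of that condition were listed. Of 14 such genes, 13 were tested and 11 had a log2 fold change above 0, as had 6264 of all 12305 genes tested. The median was 0.14 and none passed the adjusted threshold. With the replicate block, where 346 of all genes (2.81%) passed, *Map3k20*, a stress kinase gene, was higher in CKO (log2 fold change 0.71, limma adjusted *p* = 0.248, and 0.0236 with the block) and *Fbxw4*, an F-box gene, was lower (-0.73, limma adjusted *p* = 0.264, and 0.00934 with the block). *Map3k20* had an FPKM of 2.06, 1.56 and 1.73 in WT and of 3.13, 3.01 and 2.78 in CKO replicates 1, 2 and 3. *Fbxw4* had 4.02, 5.77 and 5.40 in WT and 2.68, 3.08 and 3.17 in CKO. Neither gene overlapped between the groups, and both also passed in replicates 2 and 3 alone. Of all genes tested, 5.63% were apart with higher CKO values and 8.86% with lower ones. *Trp63*, the ectodermal regulator upstream of *Dlx* genes, and *Bhlha9*, a limb bud transcription factor, named after their values were seen, were the other members higher in every CKO library (for *Trp63* by a margin of 2.034 over 2.033 FPKM), with log2 fold changes of 0.29 (limma adjusted *p* = 0.704) and 0.31 (limma adjusted *p* = 0.588).

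The BMP pathway acts upstream of several *Dlx* genes. Of its 13 listed genes, 12 were tested, the median log2 fold change was 0.074 and none passed with or without the block. *Bmp4*, a ligand made in ridge and mesenchyme, had the smallest *p* value, with a log2 fold change of 0.23 (SE 0.13, limma adjusted *p* = 0.703). *Bmp5*, another ligand, was next, with -0.25 (SE 0.24, limma adjusted *p* = 0.853), between -0.52 without WT replicate 1 and -0.049 without WT replicate 3. In replicates 2 and 3 alone, *Bmp5* was the 1 gene of the list to pass, at -0.46 (limma adjusted *p* = 0.0387). Of all genes tested, 984 (8.00%) passed there as lower.

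Of 11 transcription regulators that act beside DLX proteins, all were tested and the median was -0.13. *Alx4*, a homeobox gene of anterior mesenchyme, passed with the block (log2 fold change -0.51, limma adjusted *p* = 0.696, and 0.0266 with the block) and in replicates 2 and 3 alone (-0.50, limma adjusted *p* = 0.0077), with an FPKM of 16.3, 9.56 and 9.92 in WT and of 11.4, 6.27 and 7.48 in CKO replicates 1, 2 and 3. Replicate 1 was highest in both groups. *Pitx1*, the hindlimb homeobox gene, was higher in every CKO library (log2 fold change 0.25, limma adjusted *p* = 0.663), and *Hand2*, a posterior limb regulator, had -0.35 (limma adjusted *p* = 0.694), and -0.49 in replicates 2 and 3 alone (limma adjusted *p* = 0.0185).

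Of 14 skeletal genes, several of them targets of DLX proteins in cartilage and bone, 9 were tested with a median of -0.024. *Spp1*, which encodes the bone matrix protein osteopontin, passed with the block (log2 fold change 0.87, limma adjusted *p* = 0.702, and 0.0428 with the block) and in replicates 2 and 3 alone (0.84, limma adjusted *p* = 0.00518). Its FPKM was 2.05, 4.41 and 4.76 in WT and 3.99, 13.4 and 5.11 in CKO replicates 1, 2 and 3, so that CKO replicate 2 stood apart. *Sox9*, the regulator of cartilage, had -0.38 (SE 0.16, limma adjusted *p* = 0.585), and -0.53 in replicates 2 and 3 alone (limma adjusted *p* = 0.00408). In those libraries *Spp1* was the 1 gene of the list that passed as higher in CKO, as did 867 of all genes tested. As lower, 3 passed, namely *Sox9* and, named after their values were seen, *Runx2* (-0.53) and *Col2a1* (-0.68). Of all genes tested, 984 (8.00%) passed there as lower. Of 11 genes that work with *Dlx1* and *Dlx2* in forebrain interneurons, 1 was tested, *Sp9*, also a ridge gene, with -0.060 (SE 0.17, limma adjusted *p* = 0.950). The other 10 were below the filter.

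Of 10 genes of the pharyngeal arches, where *Dlx5* and *Dlx6* pattern the jaw, 5 were tested. All 5 had log2 fold changes below 0, as had 6041 of all 12305 genes tested, and the median was -0.43. With the block 2 of them passed as lower in CKO, as did 207 of all genes tested. In replicates 2 and 3 alone 3 of the 5 passed as lower, as did 984 (8.00%) of all genes tested. The summed FPKM of the 10 genes ranged from 33.4 to 41.3 in WT and from 23.8 to 26.3 in CKO (exact permutation *p* = 0.1). *Gsc*, a homeobox gene that *Dlx5* and *Dlx6* control in the arches, had -0.66 (limma adjusted *p* = 0.379, and 0.0172 with the block). The FPKM of *Gsc* was 10.3, 16.2 and 12.1 in WT and 7.10, 7.91 and 9.0 in CKO replicates 1, 2 and 3. *Gsc* was lower in every CKO library, as were 8.86% of the genes tested, and it also passed in replicates 2 and 3 alone. It is also transcribed in limb bud mesenchyme.

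Genes near the *Dlx* pairs share chromatin with them, so all genes of the table within 500 kb were listed. Around *Dlx1* and *Dlx2* there were 10, of which 9 were tested, and none passed the adjusted threshold. *Pdk1*, a mitochondrial kinase gene 326 kb from the pair, had an FPKM of 8.51, 6.85 and 6.57 in WT and of 4.72, 3.71 and 4.06 in CKO replicates 1, 2 and 3. It was lower in every CKO library, opposite to *Dlx2*, with a log2 fold change of -0.80 (SE 0.15, limma adjusted *p* = 0.201, and 0.00352 with the block), and it also passed in replicates 2 and 3 alone. *Metap1d*, 2.92 kb from *Dlx1*, and *Dcaf17* were also lower in every CKO library, at -0.28 (limma adjusted *p* = 0.601) and -0.32 (limma adjusted *p* = 0.714). Complete separation with lower CKO values was found in 8.86% of all genes. *Mettl8*, *Dync1i2*, *Slc25a12*, *Hat1*, *Itga6* and *Rapgef4* overlapped between the groups with log2 fold changes between -0.17 and 0.30, and *Cybrd1* was below the filter. In replicates 2 and 3 alone *Hat1*, a histone acetyltransferase gene, was higher in CKO at 0.46 (limma adjusted *p* = 0.018).

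Around *Dlx5* and *Dlx6* the table had 2 genes, *Sem1* and *Sdhaf3*, with log2 fold changes of 0.21 and 0.10 and overlapping groups. *Sem1* ran from -0.026 without CKO replicate 2 to 0.58 without CKO replicate 1, and in replicates 2 and 3 alone it was higher in CKO at 0.42 (limma adjusted *p* = 0.0318). *Sdhaf3* ran from -0.13 without WT replicate 1 to 0.37 without CKO replicate 1. Around *Dlx3* and *Dlx4* it had 21, of which 15 were tested and none passed with or without the block. Their log2 fold changes ran from -0.15 (*Xylt2*) to 0.27 (*Ngfr*), and the groups of all 15 overlapped. *Ngfr* turned to -0.090 without WT replicate 1, and in replicates 2 and 3 alone *Fam117a* passed at 0.37 (limma adjusted *p* = 0.0491). The collagen gene *Col1a1*, 167 kb from *Dlx3*, had 0.0020 (limma adjusted *p* = 0.997), and -0.25 without WT replicate 1.

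**Figure D4:**
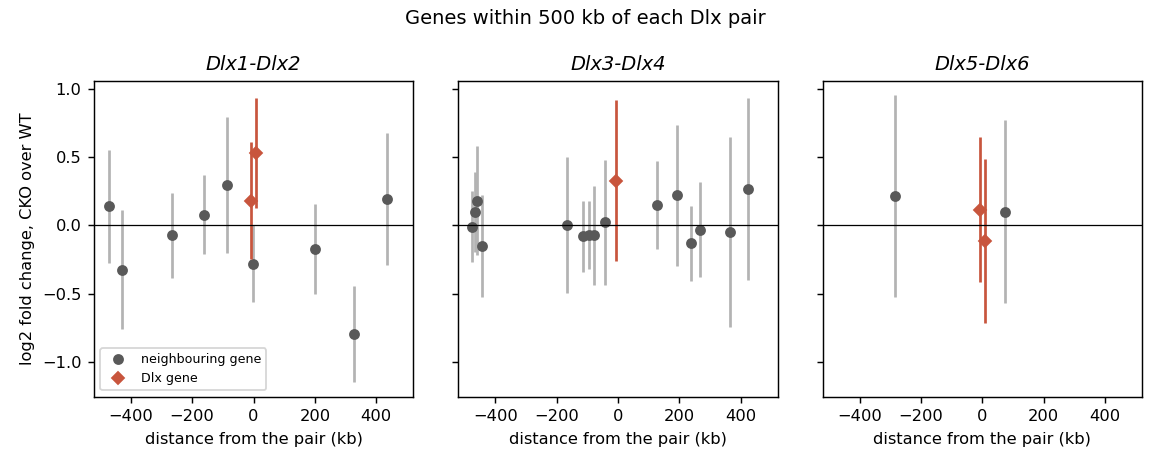
Log2 fold change between CKO and WT (vertical axis) of the tested genes within 500 kb of each *Dlx* pair, against their distance from the pair in kb (horizontal axis, left of 0 for genes before the pair), with limma 95% intervals. Red diamonds are the tested *Dlx* genes, drawn side by side at the centre. *Pdk1*, right of *Dlx1* and *Dlx2*, is the point at -0.80, and the neighbours of the other pairs lie between -0.15 and 0.27.

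The genes whose values followed each *Dlx* gene most closely over the 6 libraries were found by the root mean square difference of log2(FPKM + 0.1) values centred on each gene's mean. Where a *Dlx* gene varies little, many genes lie close to it. *Dlx5* was followed by *Rin2*, *Ltbp1* and *Ntn1*, at 0.079, 0.081 and 0.092, against a median of 0.38 over all genes. *Ltbp1*, a binding protein of latent TGF-beta, had an FPKM of 6.71, 11.0 and 12.4 in WT and of 9.44, 8.86 and 10.5 in CKO replicates 1, 2 and 3, with WT replicate 1 lowest as for *Dlx5*. *Ntn1*, which encodes the guidance protein netrin 1, had 5.0, 9.72 and 9.88 in WT and 7.01, 7.36 and 7.13 in CKO. *Dlx6* was followed by *Sft2d2*, *Chst14* and *Zfp963*, at 0.054, 0.059 and 0.059, against a median of 0.28.

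*Dlx3* was followed by *Gm16181*, *Tfap2a* and *Ovgp1*, at 0.085, 0.12 and 0.13 against a median of 0.38. *Tfap2a*, a transcription factor gene of ectoderm and limb mesenchyme, had an FPKM of 4.58, 4.31 and 4.52 in WT and of 6.76, 4.23 and 5.70 in CKO, with CKO replicate 2 below the WT libraries as for *Dlx3*. *Dlx2* was followed by *Phf11c*, *Rbak* and *Tmppe*, at 0.074, 0.088 and 0.10 against 0.38, and *Dlx1* by *Mfsd11* and *Ddx39b*, at 0.028 and 0.029 against 0.23. Within the family, *Dlx2* and *Dlx3* were closest at 0.16, nearer than the partners *Dlx5* and *Dlx6* at 0.19 or *Dlx1* and *Dlx2* at 0.23, and *Dlx2* and *Dlx5* were farthest apart at 0.43. These distances are over 6 libraries that differ in depth and composition and are given as a description.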

How the data were processed

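The 3 WT and 3 CKO RNA-seq libraries of E11.5 limb buds were grouped by the labels. The authors deposited FPKM for protein-coding genes, 1 column per library. The submitters' notes name cutadapt 2.5, HISAT2 2.1.0 and featureCounts 1.6.3 and the build mm10 for the series as a whole, and the annotation and strand setting were not given in the sources used here. Reads were recovered as FPKM times the GENCODE vM21 exon length (whole within 0.1 reads in all libraries for 92.6% of 21933 matched genes).

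Genes whose FPKM averaged 0.5 or more were tested on log2(FPKM + 0.1) by limma 3.58.1 with a mean-variance trend in R 4.3.3, with genotype alone, and checked on simulated data. The median-ratio scale of the libraries lay between 0.986 and 1.01. The groups share replicate numbers, and deviations from the group means correlated across genes at 0.64, 0.44 and 0.27 for numbers 1, 2 and 3, which was taken as a pairing by number. Unlike numbers also correlated, however, at 0.49 (WT 2, CKO 3) and 0.31 (WT 3, CKO 2), so the pairing rests on replicate 1. What a number stands for is not stated. The alternatives were other pseudocounts, filters, scalings and models, the replicate block, voom on recovered reads, and libraries left out. The genes named are the *Dlx* genes, *Hnrnpk*, neighbours within 500 kb, in each pathway list those past the threshold and the 2 smallest *p* values, in each marker list the 2 highest levels, and the 3 genes closest to each *Dlx* gene, of which some are not reported here. The members and lists were chosen with earlier results of these data known.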

Additional observations from a re-analysis of the deposited data

How the results depend on the processing

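The log2 fold changes of *Dlx1*, *Dlx2* and *Dlx3* kept their direction and stayed past no adjusted threshold under every alternative run, at 0.088 to 0.24, 0.37 to 0.69 and 0.14 to 0.60. For *Dlx1* and *Dlx2*, leaving out libraries could not turn the direction, since their groups did not overlap. For *Dlx4*, pseudocounts of 0.5 and 1 gave 0.12 and 0.068 in place of 0.31. For *Dlx5*, the direction turned to 0.0056 without WT replicate 2 and to 0.077 without WT replicate 3 (range with 1 library dropped -0.42 to 0.077), and replicates 2 and 3 alone gave -0.46 (limma adjusted *p* = 0.0283). For *Dlx6*, it turned to -0.050 without WT replicate 1 (range -0.050 to 0.23) and to -0.029 in replicates 2 and 3 alone. The replicate block changed no call of a *Dlx* gene, and of the listed genes and neighbours it changed, among others, those given with it in the report and, among the markers and *Trp53* targets, *Tbx5*, *Actc1*, *Aen*, *Bax*, *Trp53inp1* and *Bbc3*. Genes past the adjusted threshold, 8 in the model reported, numbered 346 with the replicate block, 651 with voom on recovered reads and the block, 14 with quantile normalization, 1851 in replicates 2 and 3 alone, and between 1 and 23 with 1 library left out. An ordinary linear model gave 0, with 1108 at an unadjusted *p* value under 0.05. Genes more than 2 times higher or lower at an unadjusted *p* value of 0.05, 82 in the model reported, became 38 and 15 with pseudocounts of 0.5 and 1, 162 without a filter, 47 at a mean FPKM of at least 1, 184 in replicates 2 and 3 alone, and between 73 and 168 with 1 library left out. The cause of these shifts was not tested. Depth limits *Dlx4* and *Dlx6* most, and 3 libraries per group limit every *Dlx* comparison.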
